A study of Mus musculus with 2 samples.

Results

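A set of complement genes was followed across nuclei from the ascending part and arch of the mouse aorta: C1qa, C1qb, C1qc, C4b, C3, Cfd, C6 and C7. They were chosen by symbol, with earlier results of these data known, as 8 of the 54754 features counted in both libraries. Nuclei were separated from the tissue and sequenced one by one in droplets, and each value below is a number of unique molecular identifiers (UMIs, 1 per captured RNA molecule). All tissue came from mice with 2 alleles: Wnt1-Cre, a driver of recombination in cells of the neural crest, and Rosa26-mTmG, a reporter that makes membrane tdTomato until Cre switches it to membrane GFP. The 2 libraries, Female and Male, are each a pool of animals of 1 sex and share that genotype. The labels speak of 6 animals and of 2 technical splits per pool. The sources used here give no age and name no treatment, and the barcodes do not show the splits. Since each sex is a single library, the sexes were not tested, and differences between the libraries are given with intervals that cover counting error only. Animals of 1 pool cannot be told apart.

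Complement is a cascade of plasma proteins that marks microbes, dying cells and debris. C1q, assembled from the C1qa, C1qb and C1qc chains, starts the classical pathway, in which C4 and C2 form the enzyme that cleaves C3. Factor D, the product of Cfd and also called adipsin, cleaves factor B in the alternative pathway, while C6 and C7 are parts of the terminal membrane attack complex. Liver makes much of the circulating protein, and many tissues make components locally, C1q being a classical product of macrophages and Cfd of fat cells.

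Nuclei with 300 or more detected genes were placed in the class whose 3 rule genes had the largest UMI sum, provided that it reached 3. The rule genes were Myh11, Acta2 and Lmod1 for muscle, Ptprb, Flt1 and Pecam1 for endothelium, Pdgfra, Dcn and Scara5 for fibroblasts, Adipoq, Plin1 and Plin4 for fat, and Mrc1, F13a1 and Cd163 for macrophages. None of the complement genes entered the rule. The Female and Male libraries gave 8124 and 7656 muscle, 5166 and 6766 endothelial, 2181 and 2477 fibroblast, 1475 and 1334 fat and 481 and 696 macrophage nuclei, and 1436 and 1724 nuclei stayed without a class. The libraries held 79294181 and 77989549 UMIs, with 3546 and 3104 UMIs in the median nucleus. Of 25 further marker genes not used by the rule, 25 in each library were highest in the class they stand for. Flt1 was the 1 rule gene that was not, with a higher level in muscle than in endothelium in the Female library. UMIs of a second class reached 3 in 22.2% of the assigned Female and 22.8% of the assigned Male nuclei, and 4287 barcode sequences occurred in both libraries. The class and reporter tests were repeated without nuclei of a second class, and without barcodes found in both libraries.

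The 8 genes lie on 4 chromosomes of GRCm38, and each is annotated as protein-coding. C1qb, C1qc and C1qa stand side by side on the minus strand of chromosome 4, at chr4:136880129-136886187, chr4:136889804-136893065 and chr4:136895917-136898803, and no other coding gene lies within the 18.68 kb they span. C6 (chr15:4727175-4814967, plus strand) and C7 (chr15:4988762-5063740, minus strand) lie 173.8 kb apart with 1 coding gene, Mroh2b, between them. C4b is at chr17:34728380-34743882 and C3 at chr17:57203970-57228136, both on the minus strand, and Cfd at chr10:79890853-79892655 on the plus strand. No coding gene overlaps any of them. C4b has a near-identical copy, C4a, so its counts are uncertain, although C4a itself reached no more than 3.11 CPM (counts scaled to a sum of 1e6 UMIs) in any class.

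Promoter windows (RefSeq, GRCm38.p6, 250 bases before to 50 after the annotated start) were found for 6 of the 8 genes, C1qa and C4b having none in the table used. Those of the neighbours C1qb and C1qc, which shared a class, and of the neighbours C6 and C7, which did not, are printed 5′ to 3′ on the strand of the gene. Capitals mark AGGAAG, the core letters of sites bound by the PU.1 family, or the same letters on the other strand, CTTCCT.
C1qb, chr4:136886151-136886450, minus strand: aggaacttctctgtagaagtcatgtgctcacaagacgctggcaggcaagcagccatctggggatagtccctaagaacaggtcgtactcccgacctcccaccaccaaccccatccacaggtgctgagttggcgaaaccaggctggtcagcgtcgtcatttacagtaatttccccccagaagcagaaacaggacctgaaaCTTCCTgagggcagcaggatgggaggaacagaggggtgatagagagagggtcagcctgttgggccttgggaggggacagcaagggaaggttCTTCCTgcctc
C1qc, chr4:136892865-136893164, minus strand: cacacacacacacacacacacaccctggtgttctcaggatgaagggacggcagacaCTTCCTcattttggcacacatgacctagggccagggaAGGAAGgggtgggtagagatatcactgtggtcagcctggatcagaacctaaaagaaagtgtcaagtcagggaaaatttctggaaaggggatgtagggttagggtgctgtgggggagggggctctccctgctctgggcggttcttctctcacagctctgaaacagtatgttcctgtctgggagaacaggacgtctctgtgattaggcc
C6, chr15:4726960-4727259, plus strand: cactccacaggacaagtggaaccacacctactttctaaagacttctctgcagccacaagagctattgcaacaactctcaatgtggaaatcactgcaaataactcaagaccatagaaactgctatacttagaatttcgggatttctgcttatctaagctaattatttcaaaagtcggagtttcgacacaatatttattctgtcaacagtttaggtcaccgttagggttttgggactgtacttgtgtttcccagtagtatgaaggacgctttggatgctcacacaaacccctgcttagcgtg
C7, chr15:5063724-5064023, minus strand: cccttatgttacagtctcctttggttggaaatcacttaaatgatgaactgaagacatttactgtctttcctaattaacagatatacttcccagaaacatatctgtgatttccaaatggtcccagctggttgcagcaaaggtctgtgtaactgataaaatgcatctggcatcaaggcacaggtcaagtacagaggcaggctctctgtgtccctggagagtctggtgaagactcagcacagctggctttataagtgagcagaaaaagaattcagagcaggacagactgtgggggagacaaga
C1qb and C1qc held 2 matches each, and C6, C7, C3 and Cfd held none. On both strands, 35.4% of the 32851 windows of this length hold the motif, so a match is common. TTGCNNAA, the core of sites bound by C/EBP factors, occurred once in C3 and in none of the other 5 windows, against 10.8% of all windows. TATAAA occurred once in C3, on the strand of the gene, and once in C7, there only on the other strand (TTTATA as printed), against 13.6%. These searches describe letters only.

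The genes divided among 3 classes, each with its highest level in the same class in both libraries. C1qa, C1qb, C1qc, C4b and C6 were highest in macrophage nuclei, C3 and C7 in fibroblast nuclei and Cfd in fat nuclei. In no case did the level of the top class in one library overlap that of the next class in the other, whereas most neighbours lower in the order did overlap. Differences between classes were tested with edgeR's quasi-likelihood test on the 10 sums of UMIs per library and class, with the library as a block and each class set against the mean of the other 4. That mean includes the top class, so a gene with 1 high class can be called lower in the class next in order. This was so for Cfd in macrophage nuclei and for C1qa and C1qb in endothelial nuclei, each next after the top class in both libraries. The 8 genes were chosen with earlier results of these data known, so the counts of calls that follow are descriptions. Of the 8 genes, 5, among them the 3 chains of C1q, were called higher and 3 lower in macrophage nuclei, against 19.3% and 22.3% of all 19490 genes tested. Of the 3 lower, Cfd was near the threshold (-0.59 ± 0.21 log2, edgeR adjusted p = 0.045), and its call was lost with class sums of 5 or more UMIs (0.067), without TMM scaling of the sums for composition (0.074) and without the library block (0.082). In fibroblast nuclei 3 were higher and 4 lower (all genes 23.9% and 19.7%), and in fat nuclei 2 were higher and 5 lower (32.8% and 33.3%). None was called higher in endothelial or muscle nuclei, by edgeR or by DESeq2 (all genes 24.3% in each by edgeR), and all 8 fitted differences were below 0 in both. In both of those classes 7 of the 8 were called lower (21.4% and 23.0%), C7 being the gene not called, at -0.66 ± 0.31 in muscle (log2 difference ± SE, edgeR adjusted p = 0.11) and -0.83 ± 0.31 in endothelium (0.055). C7 was called lower in both when nuclei of a second class were left out (-1.43 and -1.83, adjusted p = 0.0016 and 0.00043), when doublets called by scrublet, barcodes that look like 2 nuclei, were left out (0.0011 and 0.020) and when genes with 1 or more UMIs were tested (6.1e-06 and 1.3e-07). DESeq2 also called it lower in endothelium (adjusted p = 0.027). The same 10 sums describe these nuclei and not separate animals. The block removes the overall difference between the 2 pools. The p-values therefore rest on how class differences vary between these pools, and do not measure the spread between animals.

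**Figure D1:**
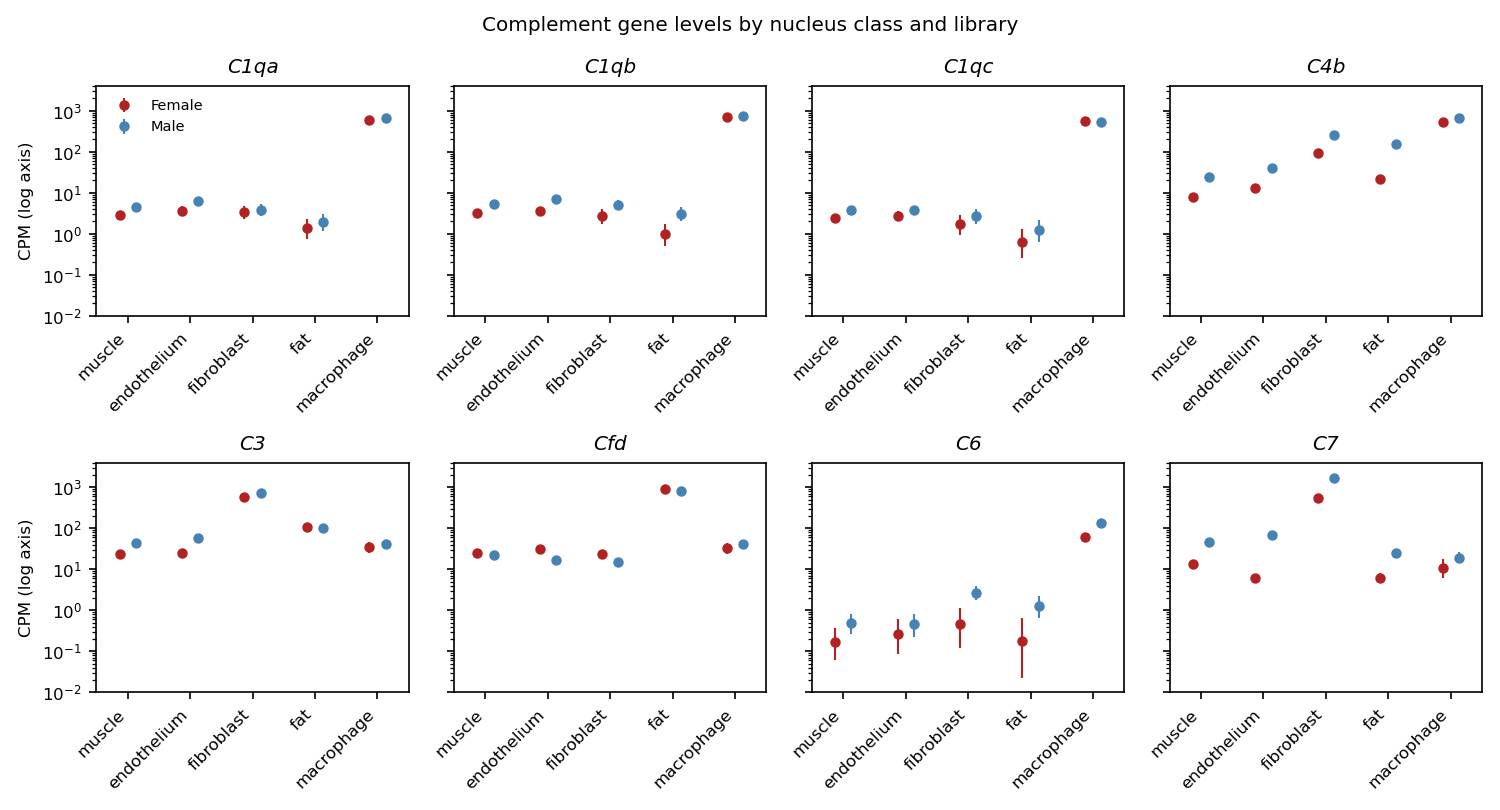
Level of each complement gene (y axis, CPM on a log axis) in the 5 nucleus classes (x axis), with 1 point per library and a 95% Poisson interval for counting error. C1qa, C1qb, C1qc, C4b and C6 peak in macrophage nuclei, C3 and C7 in fibroblast nuclei and Cfd in fat nuclei, with the Male points above the Female points for C7 in all 5 classes.

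The 3 chains of C1q were far higher in macrophage nuclei than in any other class, at close levels in the 2 libraries. C1qa stood at 597 CPM in Female and 663 CPM in Male macrophage nuclei and between 1.35 and 6.44 CPM in the 4 other classes. C1qb stood at 687 and 752 CPM there, with 0.992 to 7.01 CPM elsewhere. C1qc stood at 569 and 534 CPM, with 0.631 to 3.79 CPM elsewhere. Against the mean of the other classes these genes were higher by 7.54 ± 0.11, 7.61 ± 0.14 and 7.96 ± 0.13 on the log2 scale (± SE, edgeR adjusted p = 4.3e-11, 1.2e-10 and 6.1e-11). C1qa UMIs were found in 64.5% of Female and 67.8% of Male macrophage nuclei, against 0.949% and 0.900% of fat nuclei, which should lack the gene although they were deeper, with medians of 6875 and 6979 UMIs against 2392 and 2682. After each nucleus was thinned to 1000 UMIs, the shares were 40.6% and 43.4% in macrophage and 0.205% and 0.152% in fat nuclei. A UMI of at least 1 C1q chain was present in 84.4% and 84.3% of macrophage nuclei, and UMIs of all 3 chains in 40.3% and 43.4%. Thinned nuclei with C1qa held C1qb more often than those without it (56.7% against 34.9% Female, 50.4% against 40.1% Male), as a description of nuclei within 1 library. The nuclei without a class held 82.8 and 69.2 CPM of C1qa, and 651 and 606 CPM in those of them with a UMI of a further macrophage marker and none of another cell type list.

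C4b, whose product acts before C3 in the classical and lectin pathways, was also highest in macrophage nuclei, at 543 CPM Female and 664 CPM Male, but was spread over more classes than C1q. Fibroblast nuclei held 91.4 and 261 CPM, fat nuclei 21.1 and 155 CPM, endothelial nuclei 12.8 and 40.0 CPM and muscle nuclei 7.72 and 24.3 CPM. That order of 5 classes was the same in both libraries, yet from fibroblasts downwards each pair of neighbours overlapped between them. C4b was called higher in macrophage (3.87 ± 0.29, log2 difference ± SE, edgeR adjusted p = 2.1e-06) and fibroblast nuclei (1.33 ± 0.30, adjusted p = 0.0047), and lower in endothelial and muscle nuclei. The fibroblast call was lost when the library was not a block (adjusted p = 0.12). In fat nuclei the difference of -0.25 ± 0.33 was not called (adjusted p = 0.54). Because macrophage nuclei were few, they held 28.9% of all Female C4b UMIs and 19.0% of the Male ones, against 29.0% and 32.9% in fibroblast nuclei.

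C6 was a macrophage gene at low depth, with 108 UMIs in the whole Female and 374 in the whole Male library. Macrophage nuclei held 84.3% and 82.9% of them, at 61.2 CPM (95% Poisson interval 49.3 to 75.1) and 136 CPM (121 to 152). The other 4 classes lay between 0.166 and 2.68 CPM, from 2 to 27 UMIs each. The nuclei without a class had 0 UMIs of C6 in both libraries, which allows a share of nuclei with a UMI of up to 0.209% and 0.174%. A C6 UMI was found in 11.2% of Female and 23.4% of Male macrophage nuclei, and in 0.136% and 0.600% of the deeper fat nuclei. Against the other classes C6 was higher by 7.33 ± 0.21 on the log2 scale (edgeR adjusted p = 1.6e-09). Macrophage nuclei with and without a UMI of Lyz2, Mmp12 or Cybb both held it, at 64.1 and 47.1 CPM in the Female library and 127 and 188 CPM in the Male library. The C1q chains were lower in the nuclei without such a UMI in both libraries, C1qa at 389 against 639 CPM Female and 335 against 720 CPM Male.

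C3, the protein on which all complement pathways meet, was highest in fibroblast nuclei at 569 CPM Female and 718 CPM Male. Fat nuclei came next with 109.5 and 101 CPM, clear of the remaining classes in both libraries, and the endothelial (25.2 and 56.7 CPM), macrophage (34.3 and 41.3 CPM) and muscle levels (23.1 and 42.7 CPM) overlapped. C3 was higher in fibroblast nuclei by 3.73 ± 0.17 (log2 ± SE, edgeR adjusted p = 9.6e-08). Its call in fat nuclei was near the threshold, at 0.52 ± 0.20 (edgeR adjusted p = 0.042), and was lost with DESeq2 (adjusted p = 0.066) and without the library block (0.19). A C3 UMI was found in 59.1% of Female and 63.4% of Male fibroblast nuclei and in 42.2% and 40.0% of fat nuclei, which fell to 34.0% and 36.2% and to 10.7% and 9.17% at 1000 UMIs a nucleus. Nuclei without a class that carried mesothelial markers held C3 at 546 and 1029 CPM. Within fibroblast nuclei, the 77 Female and 172 Male nuclei with 3 or more UMIs of the mesothelial list held 772 and 1661 CPM, and the others 558 and 615 CPM.

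Cfd was the fat gene of the group, at 926 CPM in Female and 819 CPM in Male fat nuclei and between 14.8 and 41.3 CPM in the other 4 classes. It was higher in fat nuclei by 5.09 ± 0.14 on the log2 scale (edgeR adjusted p = 9.8e-10). Fat nuclei held 84.1% and 84.7% of all Cfd UMIs, and 82.9% and 80.1% of them had at least 1, or 46.0% and 43.8% at 1000 UMIs a nucleus. Muscle nuclei had a Cfd UMI in 5.07% and 3.89%, and those with a UMI of Adipoq, Plin1 or Plin4 held 39.7 and 30.1 CPM against 10.5 and 12.1 CPM in those with none. Within fat nuclei Cfd differed with Ucp1, the uncoupling protein of brown fat. Nuclei without a Ucp1 UMI held 1342 CPM Female and 1019 CPM Male, and nuclei with 3 or more held 242 and 283 CPM, a split chosen after the values were seen. The nuclei with no UMI of Ucp1, Cidea or Ppara, 65 Female and 99 Male, reached 2350.2 and 2086 CPM. C4b followed the same direction in fat, with 32.4 and 205 CPM without Ucp1 and 4.60 and 21.5 CPM with 3 or more Ucp1 UMIs. Nuclei without Ucp1 were shallower, with medians of 6380.0 and 6612 UMIs against 8440.5 and 8335.

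C7, which joins the forming membrane attack complex after C6, was the second fibroblast gene, and its level differed between the libraries. Fibroblast nuclei held 533 CPM in the Female and 1679.8 CPM in the Male library, from 4719 and 16892 UMIs. The other classes lay at 13.1 and 47.1 CPM in muscle, 6.04 and 68.5 CPM in endothelium, 6.22 and 24.95 CPM in fat and 10.8 and 19.3 CPM in macrophage nuclei, and these 4 overlapped with each other between libraries. C7 was higher in fibroblast nuclei by 5.76 ± 0.25 (log2 ± SE, edgeR adjusted p = 5.9e-08), and higher in fibroblast than in fat nuclei by 6.28 ± 0.44 (adjusted p = 8.8e-07). A C7 UMI was found in 27.1% of Female and 54.0% of Male fibroblast nuclei, or 17.3% and 42.1% at 1000 UMIs a nucleus, against 0.342% and 1.29% of fat nuclei at that depth. Set directly against fat nuclei, 6 of the 8 genes were called higher in fibroblast nuclei and 1, Cfd, higher in fat nuclei (all genes 31.4% and 29.6%). C6 was not called there (1.17 ± 0.50 log2, edgeR adjusted p = 0.065), but was when barcodes found in both libraries were left out (0.036) and with genes of 1 or more UMIs (0.031). Of the 6, C1qb (0.95 ± 0.36, adjusted p = 0.044) lost its call without nuclei of a second class (0.54), without barcodes found in both libraries (0.11) and without the library block (0.17). C1qc (1.25 ± 0.40, adjusted p = 0.022) lost its call without nuclei of a second class (0.35) and without doublets (0.14), and C4b without the block (0.34). All 3 C1q chains were at trace levels here, C1qa at 3.39 and 3.88 CPM in fibroblast and 1.35 and 1.97 CPM in fat nuclei. Macrophage markers stood at medians of 0.38% and 0.83% of their macrophage level in fibroblast nuclei, and 0.083% and 0.30% in fat nuclei. Whether these C1q UMIs come from macrophages was not tested.

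Outside fibroblasts, C7 was held by few nuclei. A C7 UMI was found in 1.12% of Female and 3.27% of Male muscle nuclei, and in 0.755% and 3.74% of endothelial nuclei. In muscle, the 1% of nuclei with the most C7 held 98.1% of its Female and 86.9% of its Male UMIs, and in endothelium all of the Female and 85.2% of the Male UMIs. Where about 1% of nuclei or fewer hold a gene, such a share must be near 100%. It was also 100% for C1qa in Female muscle and endothelial nuclei. Nuclei that also carried 3 or more UMIs of a second class held 88.0% and 84.8% of C7 in muscle and 59.3% and 91.6% in endothelium. Endothelial nuclei without any UMI of Pdgfra, Dcn or Scara5 had 0.739 and 7.06 CPM of C7, and those with one had 19.9 and 192 CPM. In muscle the same split gave 1.11 and 8.56 against 68.3 and 185 CPM, and in fat 2.97 and 4.58 against 30.3 and 102 CPM. In Female fat nuclei 29 of the 69 C7 UMIs lay in nuclei without such a marker. C4b in fat nuclei did not follow this split, with 20.6 and 149 CPM without and 24.99 and 179 CPM with a fibroblast UMI. C3 in fat nuclei was likewise 108 and 96.2 CPM without and 123 and 121 CPM with one. These splits were chosen after the values were seen.

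**Figure D2:**
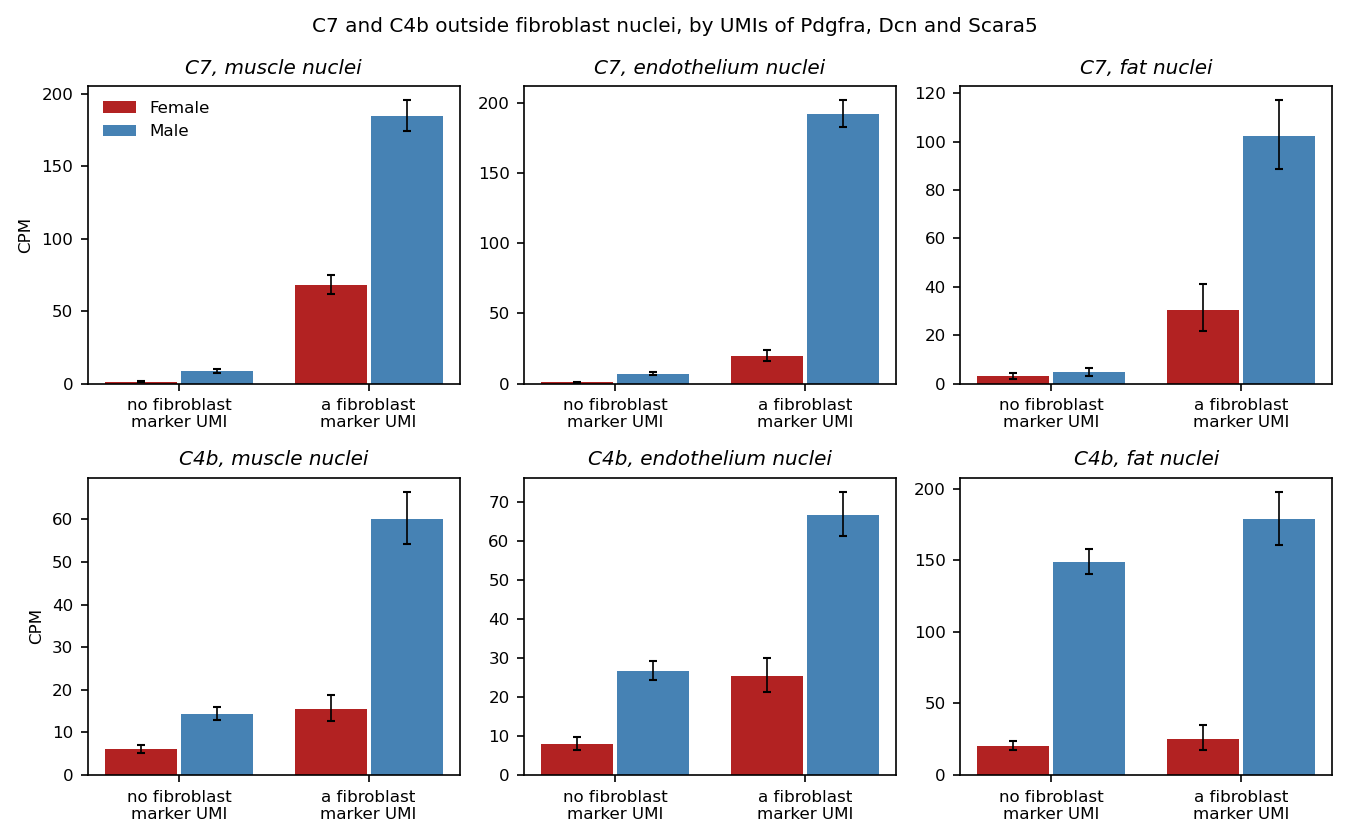
C7 (top) and C4b (bottom) levels (y axis, CPM) in muscle, endothelial and fat nuclei without and with a UMI of Pdgfra, Dcn or Scara5 (x axis), as bars per library with 95% Poisson intervals for counting error. The C7 level is higher in nuclei with a fibroblast marker UMI in all 3 classes, whereas C4b in fat nuclei is 149 and 179 CPM without and with one in the Male library.

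Fibroblast nuclei were further divided by the largest of 3 UMI sums: Plcxd3 with Scara5, Pex5l with Adamtsl2 and Lsamp, and Pi16 with Dact2. These genes were chosen with earlier results of these data known. Plcxd3 is also among the genes whose levels over the classes were most like those of C7. The place of C7 among the subsets is therefore a description and not a test. C7 was highest in the Plcxd3 and Scara5 subset, at 879 CPM Female and 2447.5 CPM Male, followed by Pi16 and Dact2 nuclei (385 and 1053 CPM) and Pex5l, Adamtsl2 and Lsamp nuclei (260.4 and 810.2 CPM). C4b was also highest in the Plcxd3 and Scara5 subset, at 131 and 313 CPM, and its lower order differed between libraries, with 50.3 and 204 CPM in Pi16 and Dact2 nuclei and 87.3 and 176 CPM in the third subset. C3 was alike in Plcxd3 and Scara5 (617 and 727 CPM) and Pi16 and Dact2 nuclei (667 and 721 CPM) and lower in Pex5l, Adamtsl2 and Lsamp nuclei (319 and 291 CPM). In all 3 subsets C7 was higher in the Male library, 2.79-fold (95% interval for counting error 2.67 to 2.90), 2.73-fold (2.56 to 2.92) and 3.11-fold (2.77 to 3.50) in the order Plcxd3, Pi16 and Pex5l. The subsets held 763, 753 and 479 Female and 1146, 883 and 246 Male nuclei in that order. Nuclei with C7 held C3 no more often than nuclei without it. In thinned nuclei, 33.6% of those with C7 and 34.0% of those without it held C3 in the Female library, and 34.4% and 37.5% in the Male library. C4b and C3 did occur together more often, C3 being present in 50.6% of Female nuclei with C4b against 32.6% without, and in 51.6% against 32.8% in the Male library.

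**Figure D3:**
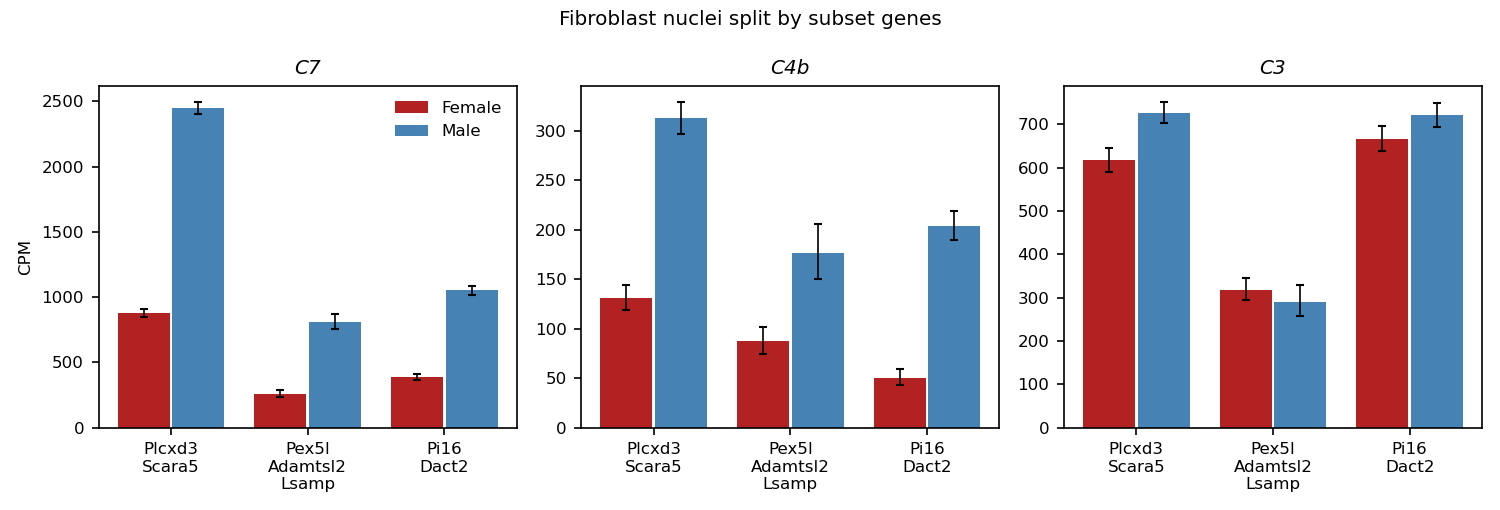
Levels of C7, C4b and C3 (y axes, CPM) in 3 subsets of fibroblast nuclei (x axis, named by the genes that place a nucleus), as bars per library with 95% Poisson intervals for counting error. C7 is higher in the Male library in each subset, and C3 is lowest in Pex5l, Adamtsl2 and Lsamp nuclei in both libraries.

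Between the libraries, C7 and C4b were at least 2-fold higher in the Male library in every class where they were measured except C4b in macrophage nuclei. A gene counted as measured in a class with 50 or more UMIs over both libraries and 20 CPM or more in either, and as apart at a log2 ratio of 1 or more after adding 5 CPM to each. Of 4 measured genes, 2 were apart in muscle, 3 in endothelial, 2 in fibroblast and 2 in fat nuclei, and 1 of 7 in macrophage nuclei, all higher in the Male library and none higher in the Female library. Among all measured genes, 0.25% of 7204, 0.385% of 7523, 0.62% of 7738, 1.2% of 7573 and 0.888% of 7771 were as far apart in that direction in the same order of classes. In the Female direction the shares were 0.125%, 0.0266%, 0.284%, 0.819% and 1.06%. Each fold below compares 2 libraries and not the sexes.

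In fibroblast nuclei C7 was 3.15-fold higher in the Male library (95% interval for counting error 3.05 to 3.26) and C4b 2.86-fold (2.64 to 3.10). C3 differed less, by 1.26-fold (1.22 to 1.31), and by 1.10-fold (1.06 to 1.14) without the nuclei carrying mesothelial markers. In fat nuclei C4b was 7.36-fold higher in the Male library (6.41 to 8.48), found in 10.4% of Female and 37.9% of Male nuclei, and 7.25-fold (6.23 to 8.46) in fat nuclei without a fibroblast UMI. It was also 8.07-fold higher (5.08 to 13.5) in the few fat nuclei without a UMI of Ucp1, Cidea or Ppara. C3 in fat nuclei had a Male to Female ratio of 0.925 (0.850 to 1.01), an interval that includes 1. The ratio was 0.893 (0.812 to 0.983) in fat nuclei without a fibroblast UMI. It was 0.768 (0.695 to 0.849) without a Ucp1 UMI and 1.25 (0.960 to 1.62) with 3 or more. C7 in fat nuclei was 4.01-fold higher (3.06 to 5.32), and 1.54-fold (0.916 to 2.62) in those without a fibroblast UMI, an interval that includes 1. In nuclei without a fibroblast UMI, C7 was 9.55-fold higher in endothelium (5.01 to 20.5, from 10 Female and 115 Male UMIs). In such muscle nuclei it was 7.70-fold higher (5.30 to 11.5, from 33 and 189 UMIs). Its levels there were 0.739 and 7.06 CPM in endothelium and 1.11 and 8.56 CPM in muscle. These lie under the minimum of 20 CPM, as in fat, so C7 did not count as measured in nuclei without a fibroblast UMI. The cause was not tested.

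In endothelial nuclei C7 was 11.3-fold (9.37 to 13.8), C4b 3.13-fold (2.72 to 3.62) and C3 2.25-fold (2.03 to 2.51) higher in the Male library. In muscle nuclei C7 was 3.59-fold (3.23 to 3.99) and C4b 3.15-fold (2.74 to 3.64) higher. Without nuclei of a second class, C7 fell under the minimum of UMIs or CPM in all 3 of these classes, C4b remained apart in endothelium and fat, and C3 was the 1 gene apart in muscle (log2 ratio of Female to Male -1.03). C3 in endothelium was then under 2-fold (-0.72), and it was also under 2-fold in endothelial nuclei without a fibroblast UMI (-0.77). Without doublets called by scrublet, C4b and C7 also fell under the minimum in muscle, which left 0 genes apart. C4b in endothelial nuclei without a fibroblast UMI was 3.35-fold higher (2.71 to 4.18), at 7.98 and 26.7 CPM. Cfd went the other way in 4 classes, with a Female to Male ratio of 1.16 (1.04 to 1.28) in muscle, 1.77 (1.56 to 2.01) in endothelium, 1.59 (1.28 to 1.97) in fibroblasts and 1.13 (1.10 to 1.17) in fat, none of them past 2-fold. In muscle nuclei without a UMI of Adipoq, Plin1 or Plin4 the ratio was 0.872 (0.702 to 1.08), an interval that includes 1. Without such a UMI it was 1.32 (1.09 to 1.60) in endothelial and 1.73 (1.33 to 2.27) in fibroblast nuclei. Cfd was under 20 CPM in such muscle and endothelial nuclei.

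In macrophage nuclei 6 of the 7 measured genes were less than 2-fold apart. C1qa, C1qb and C1qc had Male to Female ratios of 1.11 (1.02 to 1.21), 1.09 (1.01 to 1.18) and 0.939 (0.859 to 1.03), and C4b of 1.22 (1.12 to 1.33). C6 alone was apart, 2.22-fold higher in the Male library (1.76 to 2.84). Its log2 ratio of Female to Male, -1.09, lay at the threshold of 2-fold and passed just under it when barcodes found in both libraries were left out. Without nuclei of a second class C3 was apart as well (-1.10 against -0.24 with them).

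**Figure D4:**
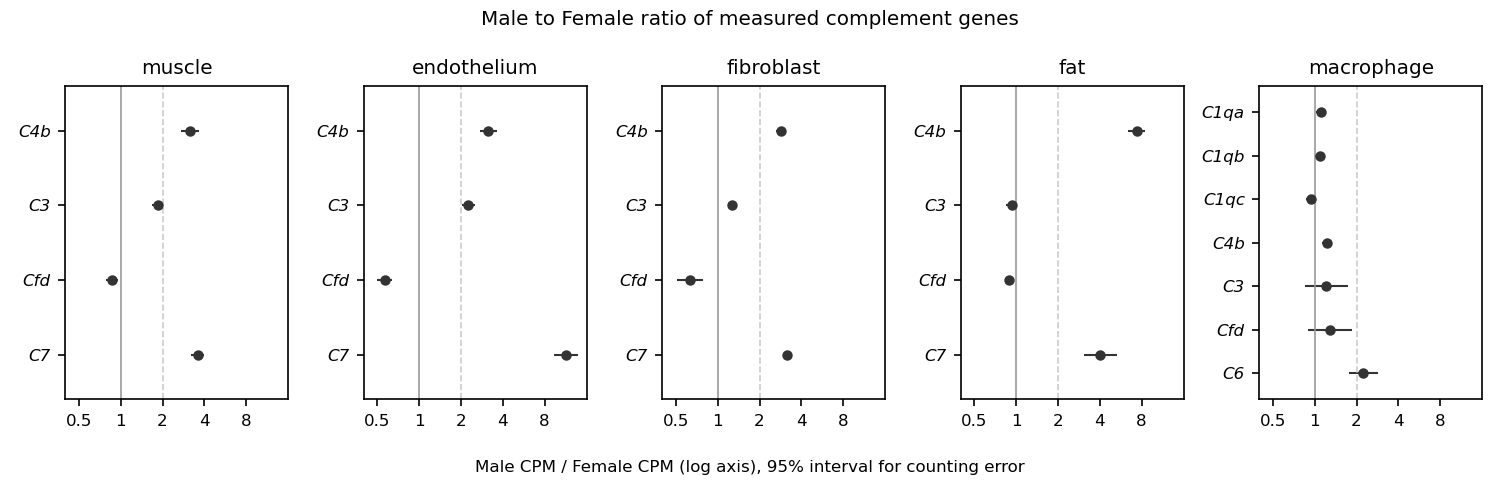
Ratio of Male to Female CPM (x axis, log axis) for each measured complement gene in the 5 classes, with 95% intervals for counting error. The solid line marks a ratio of 1 and the dashed line 2. C7 and C4b lie right of the dashed line in muscle, endothelial, fibroblast and fat nuclei, and Cfd lies left of 1 in the same 4 classes.

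The reporter comparison, which sets nuclei with GFP UMIs alone (the reporter after Cre) against nuclei with tdTomato UMIs alone, gave no called complement gene. Whether each GFP-only nucleus had been switched by Cre was not tested. Nuclei with both reporters, 541 Female and 568 Male in muscle, and nuclei with neither were left out. Each fit used 4 sums, with 1 residual degree of freedom before the spread was shared over genes. A gene not called is therefore not shown to be alike in both groups. GFP-only and tdTomato-only nuclei numbered 415 and 285 Female and 450 and 321 Male in fibroblasts, 2420 and 1729 and 2196 and 1430 in muscle, and 286 and 271 and 306 and 413 in fat. Of nuclei with 1 reporter, 10.9% of Female and 12.7% of Male endothelial and 23.2% and 21.1% of macrophage nuclei were GFP-only, against 59.3% and 58.4% of fibroblast nuclei. edgeR called 0 of 4 tested members in fibroblast, 0 of 7 in muscle and 0 of 4 in fat nuclei, and DESeq2 also 0 in each. At an unadjusted p of 0.05, 0, 1 and 1 passed. Over all genes, 1.22% were called higher in GFP-only and 3.11% in tdTomato-only fibroblasts, 0.996% and 1.19% in muscle, and 0.212% and 0.168% in fat. C7 moved in opposite directions in the libraries, with 412 CPM in GFP-only against 555 CPM in tdTomato-only fibroblasts in the Female and 1999.4 against 1099 CPM in the Male library. Its fitted difference was 0.26 ± 0.20 (log2 ± SE, edgeR adjusted p = 0.71). C3 differed in muscle by -0.57 ± 0.21 (adjusted p = 0.30), at 21.5 against 21.3 CPM Female and 28.5 against 58.7 CPM Male. It was called lower in GFP-only muscle nuclei when nuclei of a second class were left out (-0.80, adjusted p = 0.00059), when doublets were left out (-0.72, 0.032) and with genes of 1 or more UMIs (-0.55, 0.00017). Cfd in fat differed by -0.22 ± 0.07 (adjusted p = 0.25), at 809.6 against 1055 CPM Female and 852 against 888 CPM Male. It was called lower in GFP-only fat nuclei without doublets (-0.25, adjusted p = 0.036) and with genes of 1 or more UMIs (-0.23, 0.041). With 2 or more reporter UMIs, C7 in fibroblasts was called, at 0.53 with an adjusted p of 0.026.

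Genes with a pattern over the 10 sums most like each complement gene were sought among 11649 genes with 500 or more UMIs, by Pearson's r of log2(CPM + 1). The points share 2 pools, and r is a description. C1qa was closest to Adgre1, Pld4 and C1qc, C1qb to Mrc1, C1qc and C1qa, and C1qc to Itgb2, Mrc1 and Adgre1, each with r of at least 0.997, Mrc1 being a rule gene of the class. Cfd was closest to Fasn, Adck1 and Thrsp (r = 0.997, 0.997 and 0.995). C7 was closest to Dpep1, Plcxd3 and Sult5a1 (0.984, 0.970 and 0.967), and C3 to Jakmip3, Scn7a and Ccbe1 (0.973, 0.964 and 0.962). C4b had no close match, its best being Slco2b1, Rnft1 and Zfc3h1 (0.937, 0.936 and 0.936), and no gene passed 0.95. C6 had too few UMIs.

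The rest of the complement system was read from a list of 46 further genes, of which 33 had enough UMIs to be tested and 25 reached 200 UMIs. Of the tested genes, 15 were called higher and 9 lower in fibroblast nuclei, 14 and 8 in macrophage, 13 and 9 in endothelial, 6 and 20 in fat and 4 and 16 in muscle nuclei, against the percentages of all genes given above. The median log2 difference of the list was 0.20 in fibroblast, 0.22 in macrophage, -0.08 in endothelial, -1.40 in fat and -0.56 in muscle nuclei, beside -0.02, -0.22, -0.01, -0.05 and -0.03 for all genes tested. In the reporter comparison, 1 of 15 tested genes of the list was called in fibroblasts, lower in GFP-only nuclei, beside 3.11% of all genes. In muscle 0 of 17 and in fat 0 of 16 were called. The levels that follow are CPM in the Female and then the Male library. In fibroblast nuclei, the C1q partner proteases C1ra (121 and 127) and C1s1 (144 and 176), the C1 inhibitor Serping1 (555 and 681), the convertase parts C2 (31.6 and 38.7) and Cfb (29.5 and 39.4), and the regulators Cd55 (157 and 198), Cd46 (49.5 and 57.2) and Csmd1 (347 and 663) had their highest level. Colec11 was highest there by the mean of both libraries only (5.19 and 1.99).

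Endothelial nuclei had the highest level of Clu, a fluid-phase inhibitor of the terminal complex (1043 and 1088), of Cr1l (140 and 134) and of the receptor-like Cd93 (175 and 195). Macrophage nuclei had the highest levels of the receptors C3ar1 (99.5 and 104), C5ar1 (106 and 117), Itgam (92.1 and 101) and Itgb2 (103 and 94.4), of properdin, Cfp (276 and 267), and of the pattern-recognition genes Fcna (288 and 449) and Colec12 (742 and 599). Fat nuclei were highest for Cd59a (54.0 and 64.4) and Cd59b (23.8 and 18.3), which block the terminal complex, and for C4a (3.07 and 3.11), and no gene named here was highest in muscle. Cfhr2 (endothelium 14.3 and 11.7) and Masp2 (fat 1.80 and 2.38) had different top classes in the 2 libraries. Another 21 genes of the list had under 200 UMIs, including all 4 of the terminal list (C8a, C8b, C8g and C9), and 3 had none.

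**Figure D5:**
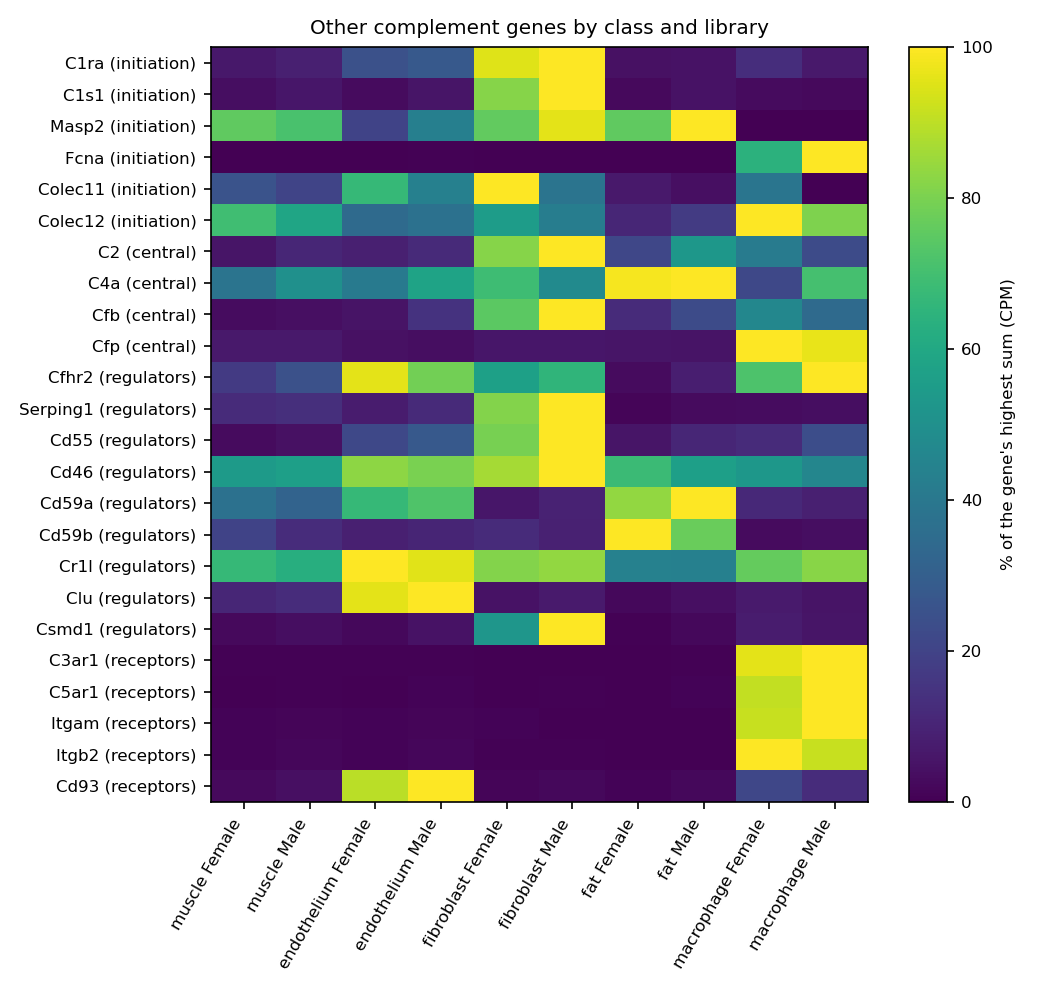
Levels of the further complement genes named here (y axis, with their role) in the 10 sums of UMIs per class and library (x axis), coloured as percent of the gene's highest sum in CPM. The receptors C3ar1, C5ar1, Itgam and Itgb2 are bright in macrophage nuclei, Clu and Cd93 in endothelial nuclei, and C1ra, C1s1, Serping1 and Cd55 in fibroblast nuclei.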

How the data were processed

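Raw UMI counts were used as deposited, 1 matrix of genes by barcodes for each of the Female and Male libraries. The submitters' processing notes name STAR, Cell Ranger, Seurat 4.4.0 and GRCm38, and both matrix headers carry Cell Ranger 7.0.0, per the file headers. Whether counting used strand or introns, and which annotation, is not given in the sources used here, so levels of different genes were not compared.

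Nuclei with 300 or more genes were classed by the largest marker sum of at least 3 UMIs, ties staying without a class. Doublets were kept, and scrublet calls, 942 Female and 1504 Male, were removed only as an alternative. UMIs were summed per library and class, scaled to CPM, and tested with edgeR 4.0.16 in R 4.3.3 (quasi-likelihood test, TMM scaling, genes with 50 or more UMIs, library as a block, Benjamini-Hochberg adjusted p under 0.05 over all genes). DESeq2 1.42.0 was an alternative. The library is the block because all sums of a library come from 1 pool. On simulated counts for fibroblasts against the other classes, with 19216 genes, 101 of 104 genes changed 2-fold and 96 of 96 changed 4-fold were recovered, with 12 false calls. For the reporter in fibroblasts, with 10650 genes, 73 of 90 genes changed 2-fold and 110 of 110 changed 4-fold were recovered, with 7 false calls. The simulated counts had the same fixed spread for every gene and no difference between libraries. Only genes with 500 or more UMIs were changed, and all others were level between groups. These figures are therefore not the recovery or error rate of the tests on the real counts. Intervals are 95% (exact Poisson, Clopper-Pearson or conditional binomial) and cover counting error only. For shares at matched depth each nucleus was thinned to 1000 UMIs, leaving out shallower ones, from 11 Female fat to 779 Male muscle nuclei. Positions came from GENCODE models matched by Ensembl identifier. All 8 genes are named, as are genes of the wider list with 200 or more UMIs and the 3 most similar genes of each member with 500 or more. A gene of the wider list is not reported here, though counts over that list include it. The 8 genes and all lists were chosen with earlier results of these data known. Python 3.11.15, scanpy 1.11.5, scipy 1.17.1 and matplotlib 3.10.9 were used.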

Additional observations from a re-analysis of the deposited data

Results flagged for a closer look

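Some ratios lay on opposite sides of 1 in groups that share a contrast, and none of these differences was tested. C3 had a Female to Male ratio of 1.08 (95% interval for counting error 0.993 to 1.18) in fat nuclei and a ratio under 1 in the other 4 classes. Cfd had a ratio of 0.782 (0.541 to 1.12) in macrophage nuclei and a ratio above 1 in the other 4. Both intervals include 1, and without nuclei of a second class Cfd in macrophage nuclei was higher in the Female library (log2 ratio of Female to Male 0.31).

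Between GFP-only and tdTomato-only nuclei, C7 in fibroblasts had a GFP to tdTomato ratio of 0.743 (0.670 to 0.824) in the Female and 1.82 (1.72 to 1.93) in the Male library. C3 in fibroblasts had ratios of 1.14 (1.03 to 1.26) and 0.746 (0.688 to 0.808). In muscle nuclei the Female and Male ratios were 6.39 and 0.356 for C1qc, from 5 to 41 UMIs a group, 0.709 and 1.996 for Cfd, and 1.57 and 0.464 for C4b. In fat nuclei they were 2.92 and 0.697 for C7, the Female one from 15 and 5 UMIs. These intervals cover counting error only, and each ratio rests on 1 pool.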

How the results depend on the processing

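Leaving out 1 library at a time reversed 0 of 86 results, which count each called difference between classes once per library left out. No reporter difference was called, so none entered this count. For the classes, the count of higher genes in fat nuclei went from 2 to 1 with DESeq2 and to 1 with no replicate block, where C3 lost its call, and in fibroblast nuclei from 3 to 2 with no replicate block, where C4b lost its call (adjusted p = 0.12). With no replicate block C4b also lost its call in endothelial nuclei (0.063) and between fibroblast and fat nuclei (0.34), C1qb between fibroblast and fat nuclei (0.17), C6 (0.11) and C7 (0.076) in fat nuclei, and C7 (0.16) and Cfd (0.082) in macrophage nuclei. Calls of C7 in muscle and endothelium, of Cfd in macrophage nuclei and of C1qb, C1qc and C6 between fibroblast and fat nuclei changed in other settings too, with the values given above. With genes of 1 or more UMIs C4b was called lower in fat nuclei (-0.30, adjusted p = 0.021). For the reporter, the count of 0 became 1 in fibroblast nuclei with 2 or more reporter UMIs (C7). In muscle it became 1 without nuclei of a second class and without doublets (C3), without barcodes found in both libraries (C7, -0.68, adjusted p = 0.039) and with 2 or more reporter UMIs (Cfd, 0.89, 0.047), and 2 with genes of 1 or more UMIs (C3 and C7). In fat it became 1 without doublets and with genes of 1 or more UMIs (Cfd). Between the libraries, the count of 2 in muscle became 1 without nuclei of a second class, with a pseudocount of 20 CPM and at 1000 UMIs a nucleus, and 0 without doublets. The 3 in endothelium became 1 without nuclei of a second class and with 20 CPM. The 2 in fat became 1 in those settings, without doublets and at 1000 UMIs. The 1 in macrophage nuclei became 2 without nuclei of a second class and 0 without shared barcodes and with 20 CPM. Chosen after the data were seen, nuclei without a UMI of Pdgfra, Dcn or Scara5 gave 0 in muscle and 1 each in endothelium and fat (C4b). The count in fibroblast nuclei was 2 in each setting. Over all genes, reporter calls numbered 469 in fibroblast, 318 in muscle and 43 in fat nuclei, against 41, 4 and 2 with no replicate block, 130, 94 and 5 with DESeq2, and up to 889 in muscle and 65 in fat nuclei over the other settings. Without TMM scaling, the share of higher calls in muscle went from 51.4% to 40.9% and the median of all genes from -0.03 to -0.15, and all 8 complement genes stayed below 0 there. The causes were not tested. C6, with 108 Female UMIs, and C4b beside C4a are limited by depth and by similar copies.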
